A study of Homo sapiens with 4 samples.

Results

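The broad open regions of wild-type HEK293T cells were the widest stretches of accessible chromatin in a list of ATAC-seq peaks. They were selected on width alone, as peaks of at least 1800 bp on autosomes other than chromosome 19. This gave 2201 regions, 4.70% of the 46875 peaks on the same 21 chromosomes, from a list of 50883 peaks in all. They covered 4.78 Mb, which was 14.2% of the bases under peaks on those chromosomes.

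ATAC-seq uses the Tn5 transposase to cut and tag DNA that is not shielded by nucleosomes, so that fragments pile up over open chromatin. A narrow site of open chromatin is typically a single gap between nucleosomes where regulatory proteins bind. Wide stretches can join several such gaps, and are known at active CpG-island promoters and at clusters of enhancers.

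The study compared wild-type (WT) cells with cells in which MORC2, an ATPase of the MORC family of chromatin regulators, had been knocked out (KO), to ask whether MORC2 acts on open chromatin. HEK293T is an aneuploid human embryonic kidney line. The 2 WT libraries were unedited cells, and the 2 MORC2 KO libraries were bulk pools, each electroporated with Cas9 and a different guide RNA, so that guide and KO replicate cannot be told apart. The WT peaks came as a single list for both WT libraries, with no value for either alone, and the results below therefore have no replicates, no error between libraries and no test.

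Total promoter counts were 10072386 and 9435801 in the WT libraries, against 11240430 and 15152636 in the KO libraries, and the promoter table gives no genome positions to join to the peaks. A KO peak list was not used here, and whether the broad regions differed in MORC2 KO cells was not analysed here. The identity of the cells was not checked, since the peak list names no genes. Positions are on the telomere-to-telomere assembly CHM13, and the genes at these positions were not analysed here.

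The broad regions had a median width of 2062 bp, with quartiles of 1907 and 2333 bp, against 506 bp for the 44674 narrower peaks. Most were under 2500 bp wide: 904 were 1800 to 2000 bp, 952 were 2000 to 2500 bp, 257 were 2500 to 3000 bp and 88 were at least 3000 bp, where each class here and below includes its lower limit and not its upper. The number of peaks declined smoothly with width, with no gap at the threshold. Fold enrichment, the ratio of the fragment pileup at a peak's summit to the local background that the peak caller MACS2 estimates, was also alike on both sides of it. There were 666 peaks within 100 bp below the threshold, at a median fold enrichment of 8.65, and 518 within 100 bp above it, at 8.60. Just inside, 6 regions were exactly 1800 bp wide, of which the 3 most enriched lay at chr7:75375233-75377032 (fold enrichment 9.95), chr7:30272155-30273954 (8.76) and chr5:69037207-69039006 (8.60). Just outside, 3 peaks fell 1 bp short, at chr16:11951133-11952931 (10.3), chr12:78842017-78843815 (8.11) and chr1:197415734-197417532 (5.62). The threshold thus cut a continuous range of widths.

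**Figure D1:**
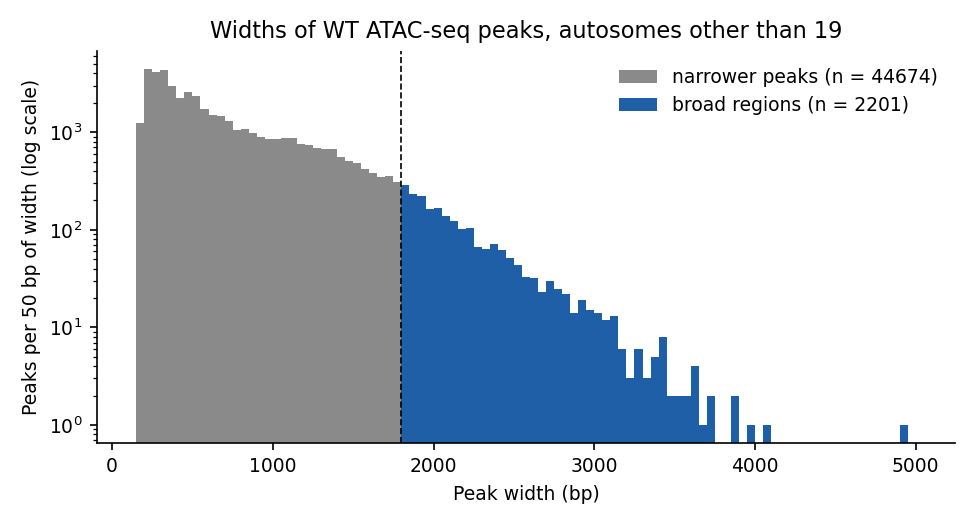
Number of WT peaks per 50 bp of width (logarithmic axis) against peak width in bp, for 21 autosomes. The dashed line marks 1800 bp: the 2201 broad regions, in blue, form the tail of a distribution that has no break at the line and reaches 4912 bp.

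The widest region spanned 4912 bp at chr5:108171821-108176732. Its fold enrichment was 6.40. The next widest lay at chr6:157978804-157982901 (4098 bp, fold enrichment 5.16), chr3:108083957-108087919 (3963 bp, 8.12) and chr6:20272921-20276818 (3898 bp, 7.12). These were followed by chr4:20234161-20238016 (3856 bp, 5.62), chr21:25201109-25204830 (3722 bp, 5.73) and chr2:156784714-156788434 (3721 bp, 5.53). The last of the 10 widest lay at chr13:27187246-27190922 (3677 bp, 6.05), chr17:7746882-7750524 (3643 bp, 4.83) and chr3:131228292-131231918 (3627 bp, 5.55). Of these 10, 9 had a fold enrichment below the median of all broad regions.

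Across the broad regions the median fold enrichment was 7.63, with quartiles of 6.28 and 9.04 and a range of 2.12 to 16.1. This lay above the median of all narrower peaks, 5.75, but below that of the class next in width, the 6138 peaks of 1200 to 1800 bp, at 9.49. Among peaks with a −log10 q of at least 10 the difference in medians was −0.0203, from 7.64 at broad regions and 7.66 at narrower peaks. The q value is computed from the same summit signal as fold enrichment. Nearly all broad regions, 2193 of 2201, passed this limit. Among narrower peaks the lower quartile of −log10 q was 6.48, below the limit. The limit thus removed mainly narrower peaks, whose median fold enrichment rose from 5.75 to 7.66, and the change is a description only. A fold enrichment over 10 was found at 289 broad regions (13.1%), compared with 42.0% of peaks of 1200 to 1800 bp, 39.4% of those of 800 to 1200 bp, 13.6% of those of 400 to 800 bp and 2.15% of those under 400 bp. Over all narrower peaks the share was 17.2%, above that of broad regions, although their median was lower. The relation to width was therefore not monotonic. In steps of 200 bp the median was greatest at 1200 to 1400 bp, at 9.89, and it declined among the broad regions themselves, from 8.45 at 1800 to 2000 bp to 7.56, 6.61 and 5.83 in the 3 wider classes.

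Fold enrichment is a ratio, and both of its terms could be recovered. The list gives the fold enrichment and the −log10 p at each summit, and under the definitions of MACS2 these fix the number of fragments over the summit and the expected background. For all 46875 peaks the recovered pileup was a whole number to within 0.01 fragments. The pileup counts fragments of both WT libraries together, after removal of duplicates.

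Broad regions were deeply covered. The median pileup at their summits was 183 fragments, with quartiles of 128 and 252 and a range of 24 to 1143, against 43 for narrower peaks. A pileup of at least 100 was seen at 86.8% of broad regions and at 22.9% of narrower peaks, and only 29 broad regions were under 50. Counting error alone, the square root of the count, is 7.39% at a pileup of 183, and covers neither the spread between libraries nor the choice of the highest base as the summit.

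Compared with peaks of 1200 to 1800 bp, whose median pileup was 170, the pileup of broad regions was only 1.08 times as high, but their local background was 1.32 times as high. The median background was 22.9 fragments at broad regions, 17.4 at peaks of 1200 to 1800 bp and 6.47 at all narrower peaks. The lowest background at any broad region was 4.98, above the genome-wide value of 4.03 at which 18.8% of narrower peaks lay. MACS2 estimates the local background from a window that includes the peak itself, so that the open bases of a wide region enter its own background. Whether this accounts for the higher background of broad regions was not tested.

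The pattern within the broad regions was a level pileup over a mounting background. The median pileup was 183, 182, 187 and 182 fragments in the classes from 1800 to 2000 bp up to at least 3000 bp, while the median background went from 21.2 to 23.1, 26.9 and 29.7. Among peaks of 100 to 200 fragments at the summit, the median fold enrichment was 10.5 at 800 to 1200 bp, 9.24 at 1200 to 1800 bp and 7.07 at broad regions. The corresponding backgrounds were 12.7, 15.3 and 19.8 fragments. Across the 2201 broad regions, which are not replicates, the Spearman correlation of width was −0.33 with fold enrichment, −0.0067 with pileup and 0.21 with background. Over the 44674 narrower peaks it was 0.63, 0.74 and 0.59. These values share the same reads and the same background model.

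**Figure D2:**
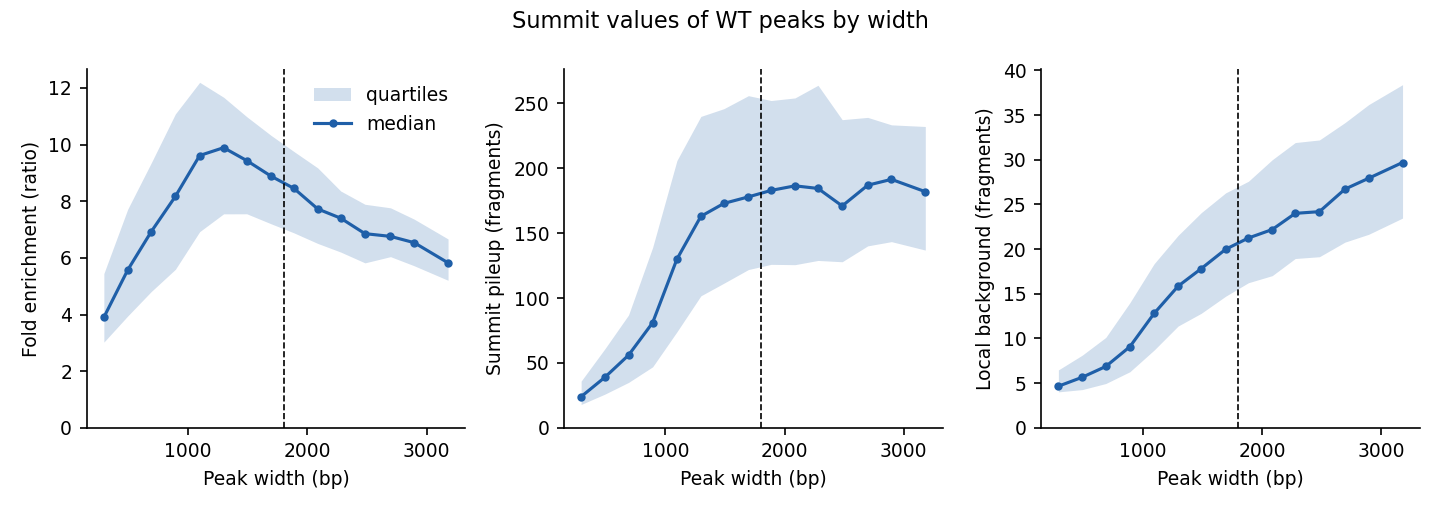
Fold enrichment (ratio), summit pileup (fragments of both WT libraries) and local background (fragments) against peak width in bp, in classes of 200 bp with a last class from 3000 bp, and the dashed line at 1800 bp. Points are medians and the bands are quartiles over peaks: fold enrichment is greatest at 1200 to 1400 bp, pileup levels off near 180 fragments, and background continues upward to 29.7.

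The most enriched broad regions lay mostly near the lower limit of width. The highest fold enrichment, 16.1, was at chr1:223181923-223183723, a region of 1801 bp with 277 fragments over a background of 16.3. It was followed by chr5:81785512-81787380 (14.7, with 320 fragments), chr1:148935780-148937879 (13.5, with 159), chr13:94880922-94882747 (13.4, with 453) and chr2:114180223-114182098 (13.3, with 255). Of these 5, 4 were less than 100 bp above the width threshold, and 4 had a background below the median of broad regions, the exception being the one on chromosome 13, at 32.8.

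At the other end, the least enriched region lay at chr9:107675508-107678136, with a fold enrichment of 2.12 from 123 fragments over a background of 57.5. The next were at chr7:23603916-23605770 (2.28, background 43.3), chr1:28352129-28353984 (2.48, background 44.1), chr7:150410638-150412614 (2.49, background 14.3) and chr2:172581142-172584226 (2.55, background 58.2). In 4 of these 5 the pileup was at least 100, and the background was above the upper quartile of broad regions, 30.2 fragments. In 3 of them another peak began within 0.893 kb. The region on chromosome 7 at 150410638 differed from the other four in having only 37 fragments.

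The summit, the base of greatest pileup, lay off-centre more often in broad regions than in peaks of intermediate width. It fell in the central 33.3% of the width in 938 of 2201 (42.6%, 95% Wilson interval 40.6 to 44.7), against 57.9% (56.7 to 59.2) of peaks of 1200 to 1800 bp and 49.6% of all narrower peaks. The narrowest peaks, under 400 bp, were lower still, at 36.4%, so that a low share was not particular to broad regions. The share was 48.2% at 1800 to 2000 bp, 41.1% at 2000 to 2500 bp, 31.9% at 2500 to 3000 bp and 33.0% at 3000 bp and above. A position drawn evenly along the region would put 33.3% there. The Wilson intervals treat peaks as independent draws, although the peaks come from a single pooled list. Both sides were used alike, with 29.2% of summits in the lower-coordinate part and 28.2% in the upper.

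In steps of 10% of the width, peaks of 1200 to 1800 bp had their summits mostly in the middle, with 18.6% and 17.7% between 40 and 60% of the width. Broad regions had a shallow dip there, with 11.6% and 12.5%, flanked by 14.3% in the step below and 13.8% in the step above. The median distance from the summit to the nearer edge was 645 bp in broad regions and 510 bp at 1200 to 1800 bp. It was 616, 659, 695 and 778 bp in the 4 classes of broad regions, whose median widths were 1887, 2175, 2686 and 3181 bp. The distance to an edge thus grew less than the width did.

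**Figure D3:**
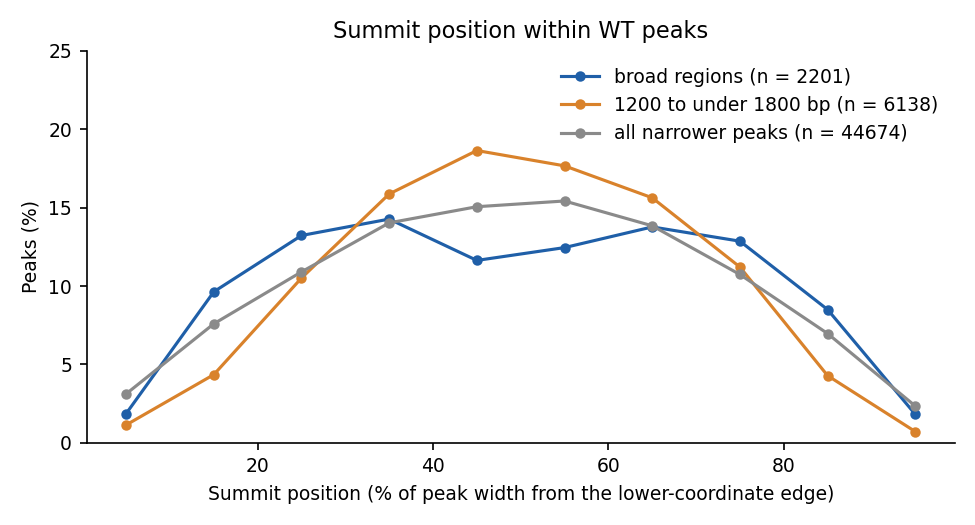
Percentage of WT peaks with their summit in each 10% of the peak width, counted from the edge with the lower coordinate. Broad regions (blue) dip to 11.6% just below the centre, where peaks of 1200 to 1800 bp (orange) reach 18.6% and all narrower peaks (grey) lie between.

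Of the 10 widest regions, 1 had its summit in the central 33.3%, that on chromosome 3 at 131228292, where it lay at 33.8% of the width. The summit of the widest region lay at 73.9% of its width, 1280 bp from the upper edge. That of the chromosome 21 region lay at 3.88% of the width, 144 bp from the lower edge. Those on chromosome 13 at 27187246 and chromosome 17 at 7746882 lay at 93.4% and 92.4%. Regions with an off-centre summit were otherwise close to the rest: the median pileup was 178 fragments, against 193 where the summit was central, the median fold enrichment 7.50 against 7.84, and the median width 2093 against 2019 bp.

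Every one of the 21 autosomes held broad regions, from 35 each on chromosomes 21 and 22 to 243 on chromosome 1. Their share of a chromosome's peaks was lowest on chromosome 20, at 3.12% (41 of 1314, Wilson interval 2.31 to 4.21), and highest on chromosome 4, at 6.18% (138 of 2232, 5.26 to 7.26). The interval lay above the overall 4.70% on 2 chromosomes, 4 and 12 (5.67%), and below it on 4, namely 11 (3.53%), 16 (3.67%), 20 and 22 (3.30%). The intervals cover counting error only, treat peaks as independent draws and are not corrected for the 21 chromosomes. The overall share includes each chromosome's own peaks, so that these positions are a description and no test. The order depended on the width threshold: the highest share was on chromosome 14 at 2000 bp and on chromosome 6 at 2500 bp, and the lowest was on chromosome 13 at 1500 bp. Left out by the rule, chromosome 19 had 68 broad peaks among 2209 (3.08%) and X had 80 among 1794 (4.46%).

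The order of the chromosomes was different by length. Between the first and last peak of each chromosome there were from 0.561 broad regions per Mb on chromosome 18 to 1.37 on chromosome 17. Chromosome 4, with the greatest share, held 0.715 per Mb, and had the fewest peaks of any width per Mb, 11.6, whereas chromosome 17 had the most, 26.9. Across the 21 chromosomes, the density of broad regions and that of all peaks had a Pearson correlation of 0.70, given as a description because broad regions are among the peaks counted. Of the broad regions, 24.4% lay in the outer 10% of a chromosome's span at either end, as did 24.3% of narrower peaks.

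Median pileup at broad regions differed between chromosomes by 1.99 times, from 123 fragments on chromosome 22 to 245 on chromosome 21, each with 35 regions. Median fold enrichment differed by 1.24 times, from 6.59 on chromosome 16 to 8.18 on chromosome 3. The chromosome with the deepest broad regions did not have deep narrower peaks: on chromosome 21 the narrower peaks had a median pileup of 38, within the range of 29 to 53.5 over chromosomes, and on chromosome 22 it was 50. The copy number of each chromosome in these cells was not tested.

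**Figure D4:**
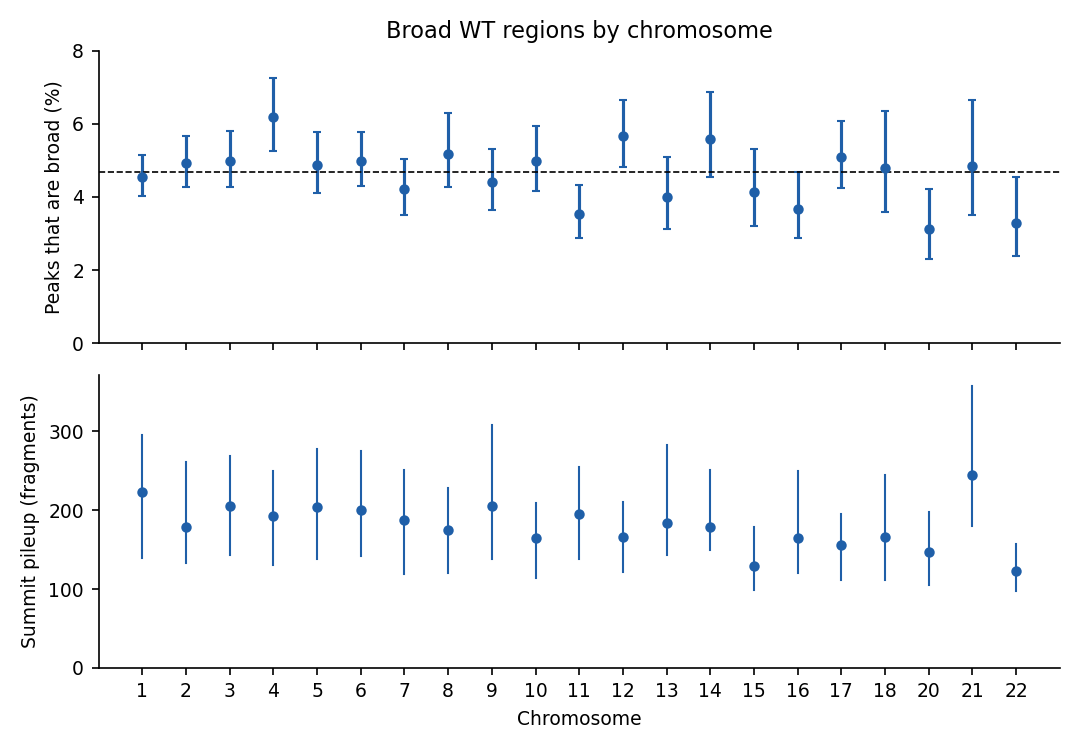
Top, percentage of each autosome's WT peaks that were broad, with 95% Wilson intervals, and the overall 4.70% as a dashed line. Bottom, summit pileup in fragments at broad regions, median with a bar for the quartiles over regions: chromosome 4 is highest above at 6.18% and chromosome 21 highest below at 245 fragments.

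Broad regions were spaced much as other peaks were. The median gap from the edge of a broad region to the nearest peak of any width was 11.6 kb, against 11.3 kb for narrower peaks and 11.9 kb at 1200 to 1800 bp. Another peak lay within 1 kb of 6.27% of broad regions, 7.18% of narrower peaks and 5.65% of peaks of 1200 to 1800 bp. Within 5 kb the shares were 20.2% and 23.9%, and 19.1% at 1200 to 1800 bp. No other peak had its summit within 10 kb of the summit in 1347 broad regions (61.2%) and in 56.5% of narrower peaks. At 1200 to 1800 bp this share was 60.5%, close to that of broad regions. No 2 peaks were closer than 190 bp, and no peak was narrower than 189 bp. The peak caller joins close stretches and drops short ones, but the limits it applied were not checked here.

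The median gap from a broad region to the nearest other broad region was 282 kb, against 263 kb from a narrower peak to its nearest broad region. Another broad region lay within 50 kb of 288 broad regions (13.1%, Wilson interval 11.7 to 14.6), and a broad region lay within 50 kb of 14.4% of narrower peaks (14.1 to 14.7). At 1200 to 1800 bp it was 13.5% of peaks (12.7 to 14.4). The intervals treat each peak as an independent draw. Neighbouring broad regions count each other, so that these intervals are a description and no test. Within 10 kb the shares were 3.63% for broad regions and 2.98% for all narrower peaks, and within 100 kb 22.8% and 25.5%. Broad regions thus had other broad regions nearby about as often as any peak did, with a small excess within 10 kb and a small deficit within 50 and 100 kb. At a width threshold of 2000 bp the difference within 50 kb changed sign, to 0.94 percentage points. The 88 regions of at least 3000 bp were farther apart from other broad regions, at a median of 488 kb. By chromosome, the share of broad regions with another within 50 kb ran from 0 of 45 on chromosome 18 to 27.0% of 115 on chromosome 17, which also had the most broad regions per Mb.

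**Figure D5:**
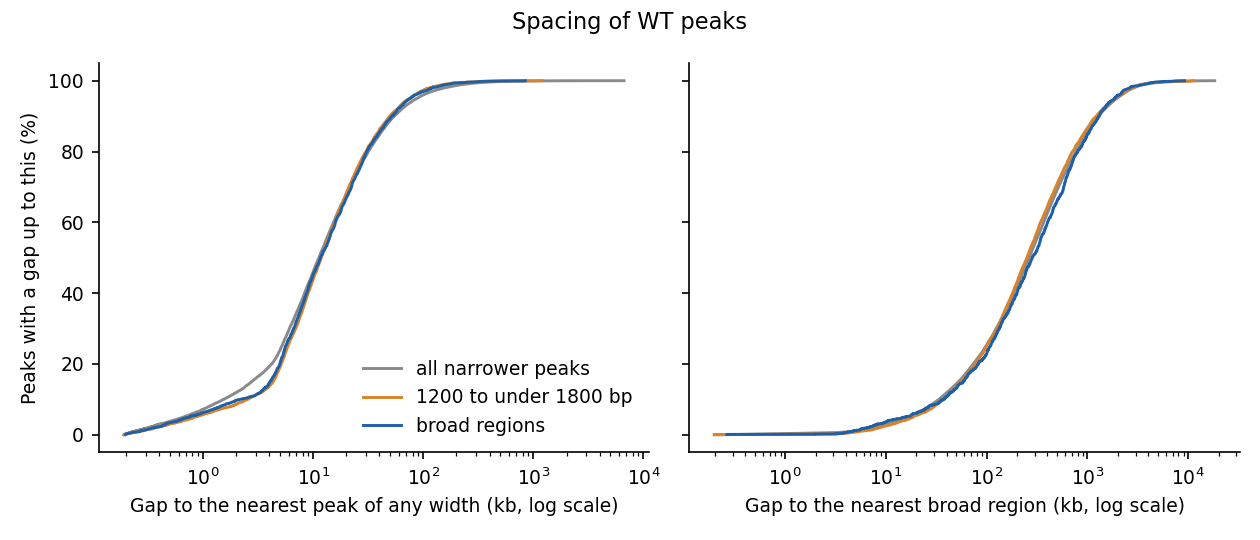
Cumulative percentage of WT peaks with a gap up to the distance on the axis (kb, logarithmic), to the nearest peak of any width (left) and to the nearest broad region (right). The curves of broad regions (blue), peaks of 1200 to 1800 bp (orange) and all narrower peaks (grey) nearly overlie, with medians from 11.3 to 11.9 kb on the left, and separate there mainly below 5 kb.

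With gaps of at most 50 kb, 1913 broad regions stood alone, and 288 formed 126 runs, of which 100 were pairs, 20 were triplets and 6 held 4 or more. Regions in runs had a lower median fold enrichment than those alone, 6.70 against 7.74, with pileups of 175 and 184 fragments and backgrounds of 25.0 and 22.7. Those in runs were also wider, at a median of 2122.5 against 2049 bp. Whether the lower fold enrichment went with width was not tested. The longest run held 6 broad regions over 74.7 kb at chr5:181747551-181822287, with 9 peaks of any width. Their fold enrichments ranged from 3.14 to 7.61, over backgrounds of 24.2 to 61.2 fragments.

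The next runs held 5 broad regions each. One spanned 50.7 kb at chr17:49433963-49484629, among 10 peaks of any width, with pileups of only 43 to 125 fragments. The other spanned 102.2 kb at chr8:145597551-145699775, among 13 peaks of any width, with pileups of 145 to 240 fragments. The chromosome 17 run thus combined wide regions with low pileup, whereas the chromosome 5 run reached 380 fragments and its lowest region had 78.

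The closest broad regions in the list were a pair on chromosome 17, chr17:82733926-82736318 and chr17:82736582-82739438, which were separated by 0.263 kb and had fold enrichments of 2.94 and 2.61. The most isolated region lay at chr15:20650767-20653040, 9170.2 kb from the nearest other broad region, and had 70 fragments over a background of 10.4.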

How the data were processed

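ATAC-seq was performed on 2 WT and 2 MORC2 KO libraries. The authors trimmed the reads, aligned them with bowtie2 to the CHM13 assembly, kept properly paired primary alignments of high mapping quality, removed duplicates with Picard and called peaks with MACS2 at its default settings on read pairs. The deposited WT list gives each peak's fold enrichment (a ratio), its −log10 p and −log10 q, and a score. The score equalled 10 times the −log10 q, truncated, for 99.9% of peaks. The deposited promoter table holds raw counts, which were used for depth only. MACS2 defaults set how closely neighbouring stretches are joined and hence the widths.

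Width was end minus start, and positions count from 1. Pileup k and background b were solved from fold enrichment, (k + 1)/(b + 1), and −log10 p, the upper Poisson tail beyond k (scipy 1.17.1), and the solution was tested on simulated data. Gaps run from edge to edge within a chromosome, and the shares of a chromosome's span run from its first to its last peak.

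The members and classes were chosen with earlier results of these data known, and fold enrichment, pileup, summit and width come from the same reads, so that no test was made. Named regions are the 10 widest, the 5 highest and 5 lowest in fold enrichment, the 3 longest runs and those beside the threshold. The closest pair and the most isolated region were added after their values were seen. Alternatives were the width threshold, the −log10 q, the chromosomes, joined peaks, the comparison class and the distance. Sequences of the regions were not analysed here.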

Additional observations from a re-analysis of the deposited data

How the results depend on the processing

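The number of broad regions depended on the threshold: 4509 at 1500 bp, 1297 at 2000 bp and 345 at 2500 bp. It was 2193 at a −log10 q of at least 10, and 2201 and 2449 with peaks joined across gaps of 150 and 500 bp. No gap was under 190 bp, so that joining across 150 bp could not change the number. The excess in median fold enrichment over narrower peaks, 1.88, was 2.71, 1.43 and 0.49 at those 3 thresholds, 0.895 at a −log10 q of at least 5 and −0.0203 at 10. It was −1.85 against peaks of 1200 to 1800 bp alone and, at pileups of 100 to 200, −2.62 against all narrower peaks and −2.17 against that class. The sign therefore depended on which peaks broad regions were compared with.

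The difference in central summits, −7.01 percentage points, was −0.91, −10.9 and −17.2 at the 3 thresholds, −11.7 and −15.5 at a −log10 q of at least 5 and 10, −4.29 for the central 50% of the width and −15.3 against 1200 to 1800 bp. The ratio of the highest to the lowest chromosome share, 1.98, was 1.56, 3.05 and 5.11 at the 3 thresholds. At 2500 bp only 345 regions were left over 21 chromosomes. Shares there were 1.17% on chromosome 6 and 0.228% on chromosome 20, so that this ratio rests on few regions. The highest share moved from chromosome 4 to chromosomes 14 and 6 at 2000 and 2500 bp, and the lowest from chromosome 20 to 13 at 1500 bp. The difference in broad neighbours within 50 kb, −1.31 points, was −2.78, 0.94 and 1.35 at the 3 thresholds and 0.66 within 10 kb, so that its sign was not stable. The cause of the changes in these results was not tested for any setting. The median pileup was between 179 and 187 throughout. Leaving out each chromosome in turn gave 1.84 to 1.92 for fold enrichment, −7.68 to −6.64 for central summits and −1.85 to −0.968 for neighbours.

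Comparisons with the 1200 to 1800 bp class for summits and neighbours, the pileup band and the left-out chromosomes were chosen after seeing the data. No paired analysis was possible because the WT list pools both libraries, and neither library was left out for the same reason.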
